A study of Rattus norvegicus with 22 samples.

Results

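The zinc finger transcription factors Egr1, Egr2 and Egr3 of the early growth response family, the immediate early response genes Ier2, Ier3 and Ier5, and Srf, the gene for serum response factor, were examined in rat liver after a dose of a mitochondrial complex III inhibitor. The 7 genes were chosen by name: a probe set was taken where one of these symbols was its single symbol in the platform annotation. Each had 1 such probe set, so all 7 were measured among 18166 genes. In limma, 0 of the 7 passed at an adjusted p under 0.05 (Benjamini-Hochberg over all genes), against 12.4% of all genes; Welch and Wilcoxon tests called 0 as well. Egr1 nevertheless lay above the highest vehicle array in 5 of 10 treated animals, at up to 10.4 times the vehicle mean, while the other 5 treated animals stayed inside the vehicle range.

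The treated group consisted of 10 female Crl:CD(SD) rats, an outbred Sprague-Dawley stock, whose livers were taken 5 hours after 50 mg/kg GSK932121A. The compound, which blocks complex III of the respiratory chain according to the title of the series, was given once into the peritoneum as a nanomilled suspension with mannitol, hydroxypropylmethylcellulose and sodium dodecyl sulphate. The vehicle group consisted of 12 rats of the same stock, sex and labelled age, 12 weeks, which received those excipients at 0 mg/kg of compound. Both groups had a dose volume of 10 mL/kg. The labels give no sampling time for the vehicle group. Of 12 rats dosed with GSK932121A, 2 were left out by the submitters for low plasma exposure, and the compound was given at 1 dose and read at 1 time. RNA of the median lobe, a mixture of hepatocytes and other liver cells, was hybridised to 1 Affymetrix array per rat. Values are on the log2 scale, where a difference of 1 is a doubling.

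Immediate early genes are switched on from existing factors, without new protein synthesis, and their transcripts are short-lived. In the best known route, ERK kinases phosphorylate ETS-family cofactors such as ELK1, which sit beside serum response factor on the CArG box of the serum response element. The EGR proteins then bind GC-rich sites and are held back by their co-repressors NAB1 and NAB2. IER2 is a nuclear protein linked to transcription, IER3 is a regulator of cell survival that responds to NF-kB, and IER5 binds the phosphatase PP2A and is linked to the heat shock factor HSF1. In liver, Egr1 is known as an early gene of regeneration and injury.

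Promoter windows, from 250 bases before to 50 bases after the annotated start, were held in the RefSeq table (build GRCr8) for 5 of the 7 genes: Egr1, Egr2, Ier2, Ier5 and Srf. The windows of Egr1 (chr18:26736828-26737127, + strand), Egr2 (chr20:21054392-21054691, - strand), Ier2 (chr19:40399123-40399422, + strand) and Srf (chr9:21923826-21924125, + strand) are shown because they hold the serum response and cAMP response motifs of this family. Capitals mark CArG boxes (runs of 10) and the cAMP response element core TGACG on either strand, which reads CGTCA in reverse.
Egr1: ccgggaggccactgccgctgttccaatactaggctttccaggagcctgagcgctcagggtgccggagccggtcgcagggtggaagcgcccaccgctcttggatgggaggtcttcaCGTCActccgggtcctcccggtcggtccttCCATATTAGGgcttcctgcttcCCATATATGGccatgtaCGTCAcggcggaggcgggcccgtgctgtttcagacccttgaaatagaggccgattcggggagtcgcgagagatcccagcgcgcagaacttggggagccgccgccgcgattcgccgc
Egr2: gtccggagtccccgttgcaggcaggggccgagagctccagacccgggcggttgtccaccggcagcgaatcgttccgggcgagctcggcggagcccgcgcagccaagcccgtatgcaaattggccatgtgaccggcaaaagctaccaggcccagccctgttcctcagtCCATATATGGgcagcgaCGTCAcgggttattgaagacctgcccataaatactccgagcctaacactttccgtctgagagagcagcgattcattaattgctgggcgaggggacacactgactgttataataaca
Ier2: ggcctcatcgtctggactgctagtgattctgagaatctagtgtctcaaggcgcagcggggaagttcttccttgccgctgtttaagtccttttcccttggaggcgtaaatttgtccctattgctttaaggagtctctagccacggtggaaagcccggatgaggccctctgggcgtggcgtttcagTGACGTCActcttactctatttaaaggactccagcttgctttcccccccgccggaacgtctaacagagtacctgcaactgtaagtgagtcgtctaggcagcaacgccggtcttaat
Srf: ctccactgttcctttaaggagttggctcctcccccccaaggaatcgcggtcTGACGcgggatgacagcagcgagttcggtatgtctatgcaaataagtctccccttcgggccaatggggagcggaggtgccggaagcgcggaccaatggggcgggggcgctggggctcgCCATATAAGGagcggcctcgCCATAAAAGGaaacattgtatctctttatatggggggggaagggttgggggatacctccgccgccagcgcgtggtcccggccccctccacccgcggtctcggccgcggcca

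Egr1 and Srf each held 2 CArG boxes and Egr2 held 1, while none was found in the windows of Ier2 and Ier5. A CArG box was present in 1.64% of all 33469 windows. In Egr1 the boxes were CCATATTAGG at bases -105 to -96 from the start and CCATATATGG at -83 to -74. Egr2 carried the same CCATATATGG at -83 to -74. In Srf they were CCATATAAGG at -81 to -72 and CCATAAAAGG at -61 to -52. The cAMP response element core stood in 4 of the 5 windows, all but that of Ier5, and in 21.2% of all windows. It lay at -66 to -62 in Egr1, Egr2 and Ier2 alike. In Ier2 a copy on each strand overlapped, at -66 to -62 and -63 to -59. The EGR site GCGNGGGCG occurred in Srf alone of the 5 (4.98% of all windows), and the TATA box TATAAA in Srf and Ier5 (14.2%). The ETS core GGAA was in all 5, and in 95.8% of all windows, and overlapped both boxes of Egr1 and the second box of Srf. All motifs were searched on both strands. A match describes the letters of the window and not the binding of a factor.

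**Figure D1:**
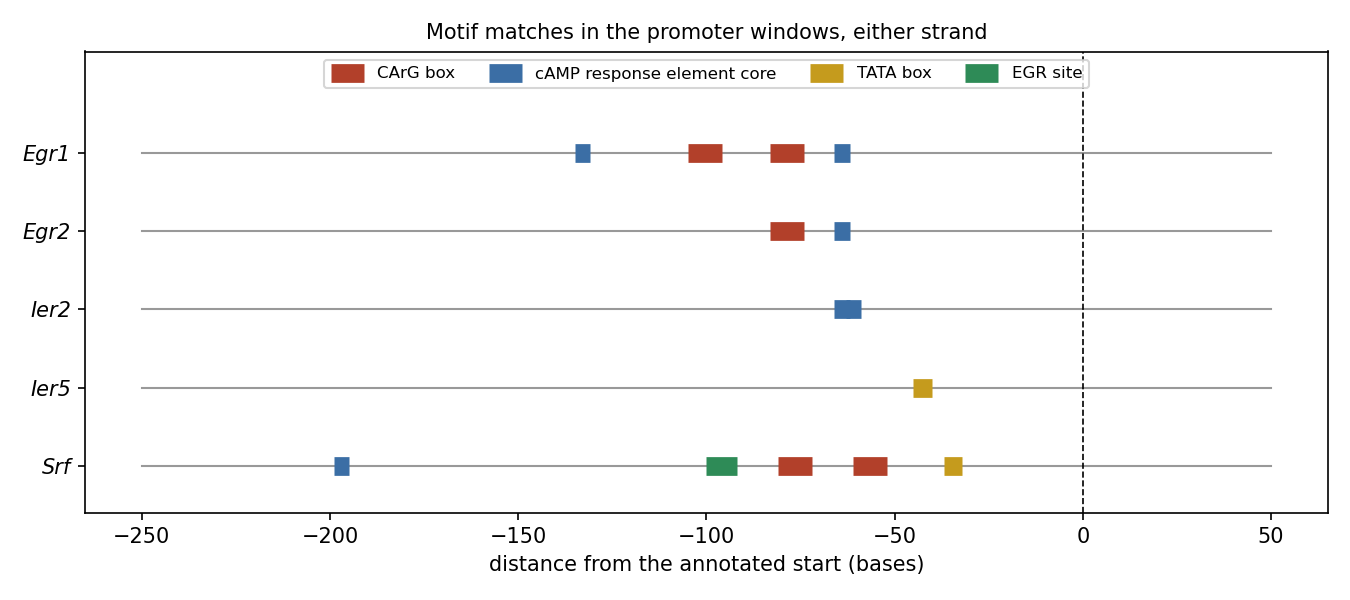
Positions of motif matches in the promoter windows of Egr1, Egr2, Ier2, Ier5 and Srf, with the distance from the annotated start in bases on the horizontal axis and 1 line per gene. Red blocks are CArG boxes, blue blocks cAMP response element cores, green the EGR site and yellow TATA boxes. The blue block at -66 to -62 recurs in Egr1, Egr2 and Ier2, and the red block at -83 to -74 in Egr1 and Egr2.

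Egr1 was the member with the widest range of values. After GSK932121A it ran from 7.24 through a median of 8.69 to 11.12, and after vehicle from 6.24 through a median of 7.75 to 8.99. The widest gap between neighbouring vehicle values was 1.03, with 1 array below it. Among the treated arrays the widest gap was 1.47, with 5 arrays on either side. This division was seen in the data and not tested. The treated arrays above the gap were replicates 13 (9.42), 23 (10.09), 14 (10.74), 22 (10.99) and 18 (11.12), all higher than any vehicle array. Those below it were replicates 17 (7.24), 21 (7.34), 24 (7.61), 16 (7.76) and 20 (7.95), all inside the vehicle range. Against the vehicle mean, the upper 5 arrays stood 3.20, 5.07, 7.95, 9.50 and 10.4 times as high, in the same order. In bulk tissue, a change in the number of cells of a type and a change in RNA per cell cannot be told apart.

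Over the groups, Egr1 averaged 9.03 ± 1.61 (SD, n = 10) in GSK932121A livers and 7.75 ± 0.67 (SD, n = 12) in vehicle livers. The log2 difference was 1.28 ± 0.45 (SE), or 2.43-fold with a 95% interval from 1.28-fold to 4.62-fold, and did not pass over all genes (limma, p = 0.00864, adjusted p = 0.0642). It was the only member of the 7 with an unadjusted p under 0.05, which 24.0% of all genes had. In the main limma fit the call lay close to the threshold. When only the 10410 genes averaging 5 or more were kept, of which 22.9% passed, Egr1 passed too (adjusted p = 0.0446). It lay farther from the threshold by Welch test (unadjusted p = 0.0371, adjusted p = 0.177) and by Wilcoxon test (unadjusted p = 0.14, adjusted p = 0.394). With the trend and robust options of limma the adjusted p was 0.112. Of 22 limma fits that each left out 1 array, Egr1 passed in 6. The arrays left out were vehicle replicate 9 (adjusted p = 0.0464) and GSK932121A replicates 16 (0.0445), 17 (0.0276), 20 (0.0471), 21 (0.0311) and 24 (0.0351). These were the vehicle array with the highest Egr1 and the treated arrays below the gap, so leaving out any of them had to widen the difference. With 5 surrogate variables for hidden factors, which accounted for 45.5% of the variance of group, the difference became -0.08 (adjusted p = 0.953).

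The SD of Egr1 between animals was 1.61 after GSK932121A and 0.67 after vehicle. The ratio, GSK932121A over vehicle, was 2.38 (permutation test, unadjusted p = 0.00478, 1 of 7 such tests), where the median ratio over all genes was 1.01. Adjusted over these 7 tests it passed by SD (adjusted p = 0.0335) but not by the median absolute deviation (unadjusted p = 0.00871, adjusted p = 0.061). The genes were chosen with earlier results known and no adjustment over all genes was made, so these values are not independent evidence. By SD, the unadjusted p of the other 6 genes was 0.0754 or above. The SDs were 0.58 after GSK932121A and 0.33 after vehicle for Ier2, and 0.34 after GSK932121A and 0.18 after vehicle for Egr2. For Ier3 the SD was 0.29 after GSK932121A and 0.37 after vehicle. A wider spread after GSK932121A was not particular to Egr1. Among the other immediate early genes described below, the SD of Atf3 was 2.17 after GSK932121A and 0.31 after vehicle. That of Nr4a1 was 1.66 after GSK932121A and 0.23 after vehicle. Dusp1, Klf2, Klf4 and Klf10 had a smaller SD after GSK932121A than after vehicle.

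**Figure D2:**
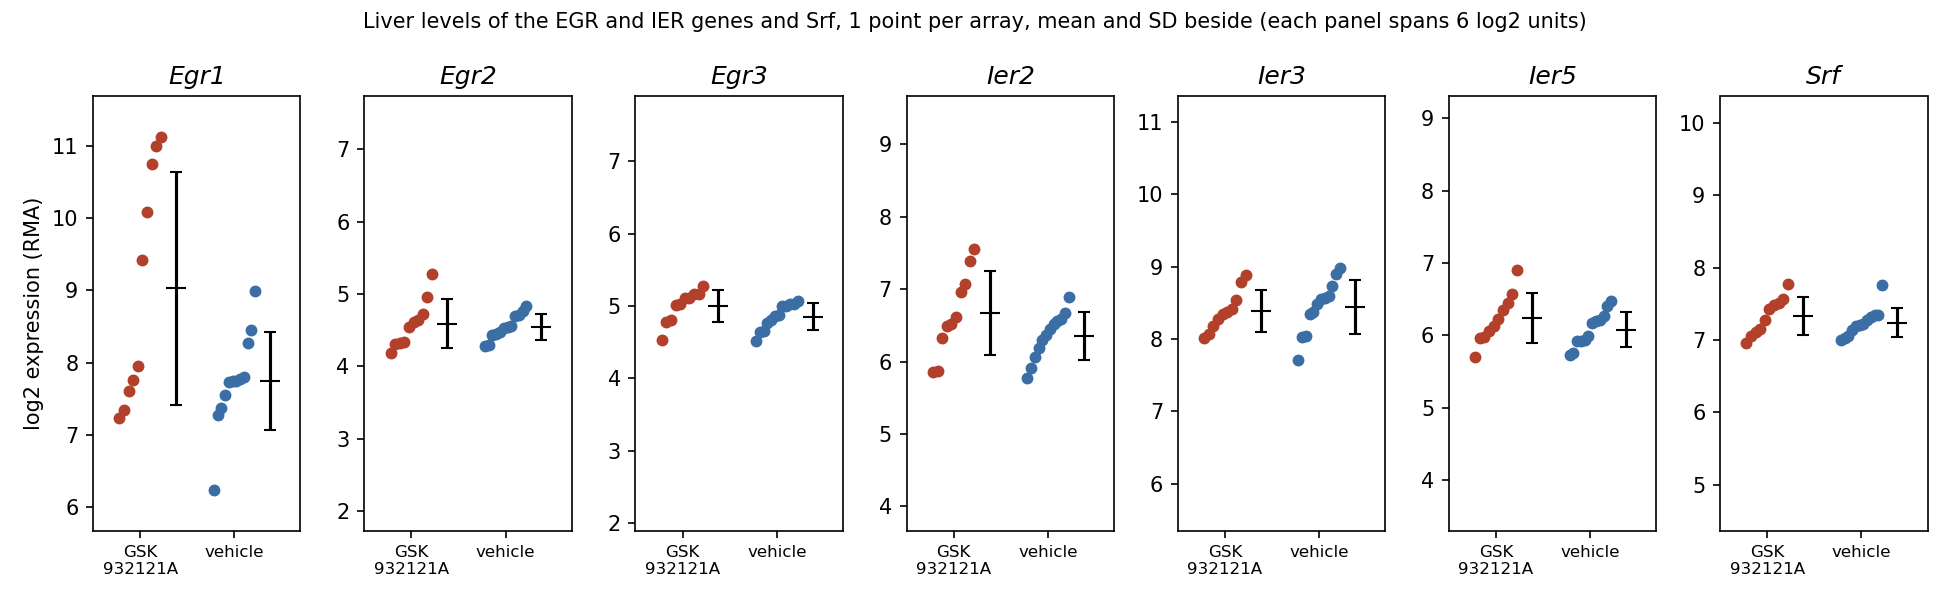
Log2 expression (vertical axis, each panel 6 log2 units tall) of the 7 genes in 10 GSK932121A arrays (red, left) and 12 vehicle arrays (blue, right), with points sorted by value and the mean and SD beside each group. For Egr1, 5 treated arrays lie above 8.99, the highest vehicle array, and 5 lie among the vehicle arrays.

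The other EGR genes differed little between the groups. Egr2, known for its part in myelination and lymphocyte activation, ran from 4.18 through 4.57 to 5.28 after GSK932121A and from 4.27 through 4.54 to 4.83 after vehicle. The groups overlapped, with replicates 18 (5.28) and 23 (4.96) above and replicate 14 (4.18) below all vehicle arrays. Its log2 difference was 0.04 ± 0.11 (SE; adjusted p = 0.865), with a 95% interval from -0.18 to 0.26. The vehicle mean of 4.54 lay below every array median (4.73 to 4.85). No measure of background was used here. Replicate 14, which had one of the highest Egr1 values, had the lowest Egr2 value of all 22 arrays.

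Egr3, a relative induced by many of the same stimuli, ran from 4.53 through 5.07 to 5.28 after GSK932121A and from 4.51 through 4.86 to 5.07 after vehicle. Although 5 treated arrays (replicates 13, 14, 18, 22 and 24) stood above all vehicle arrays, the highest of them was 5.28, and the difference of 0.15 ± 0.09 did not pass (adjusted p = 0.317, 95% interval from -0.03 to 0.33). This probe set too lay near the array medians. Replicate 23, with Egr1 at 10.09, had the lowest Egr3 value of the treated group (4.53).

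Among the IER genes, Ier2 had the largest difference. It ran from 5.86 through 6.57 to 7.56 after GSK932121A and from 5.77 through 6.41 to 6.89 after vehicle. Replicates 14 (7.56), 22 (7.39), 18 (7.07) and 23 (6.96) exceeded every vehicle array, and all 4 belonged to the 5 arrays with high Egr1. The remaining array of that set, replicate 13, had 6.49 and lay inside the vehicle range. The mean difference was 0.31 ± 0.18, or 1.24-fold with a 95% interval from 0.96-fold to 1.60-fold (adjusted p = 0.309). With 5 surrogate variables it was -0.15 (adjusted p = 0.772).

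Ier5 ran from 5.70 through 6.18 to 6.90 after GSK932121A and from 5.72 through 6.08 to 6.47 after vehicle. Replicates 14 (6.90) and 20 (6.58) lay above all vehicle arrays, and replicate 17 (5.70) below them, and the groups otherwise overlapped. Replicate 20 had low Egr1. The difference of 0.15 ± 0.12 did not pass (adjusted p = 0.471, 95% interval from -0.09 to 0.40). Ier3 was the member with a difference below 0. It ran from 8.01 through 8.36 to 8.89 after GSK932121A and from 7.72 through 8.52 to 8.99 after vehicle, and all 10 treated arrays lay inside the vehicle range. The difference of -0.06 ± 0.13 did not pass (adjusted p = 0.859), and its 95% interval, from -0.33 to 0.22, bounds a mean rise of Ier3 at 1.16-fold.

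Srf, whose product binds CArG boxes, ran from 6.95 through 7.35 to 7.78 after GSK932121A and from 7.00 through 7.22 to 7.77 after vehicle. Replicate 14 (7.78) stood just above all vehicle arrays and replicate 17 (6.95) just below them, and the groups otherwise overlapped. The difference was 0.09 ± 0.10 (adjusted p = 0.632), with a 95% interval from 0.93-fold to 1.22-fold. The median log2 difference of the 7 genes was 0.15, and 6 of them were above 0, beside a median of -0.01 over all 18166 genes.

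Whether the members differed from each other in their change was tested for all 21 pairs, on the difference between the genes within each array. The log2 difference of Egr1 exceeded those of the other 6 genes by between 0.97 (against Ier2) and 1.34 (against Ier3). These 6 pairs were those with an unadjusted p under 0.05, and none passed after adjustment (permutation tests, adjusted p = 0.111 for each). The lowest adjusted p of the other 15 pairs was 0.311, for Ier2 against Ier3.

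The members were then compared within each group, to see whether they varied together between animals. For pairs with Egr1 in the treated arrays no correlation was computed, because its widest gap left 5 of those arrays on either side. In the 36 relations left, 15 in treated and 21 in vehicle arrays, 0 passed after adjustment, with 3 at an unadjusted p under 0.05 by Pearson's r and 2 by Spearman's rho. The strongest in the treated arrays was that of Ier2 with Ier5 (r = 0.73, permutation p = 0.0185, adjusted p = 0.485; rho = 0.68, p = 0.0355, adjusted p = 0.638). Without the 2 arrays farthest from the median of Ier2, r was 0.47, so the relation rests partly on those arrays. In the vehicle arrays, Egr3 with Ier5 gave r = 0.60 (permutation p = 0.0404, adjusted p = 0.485) and rho = 0.63 (p = 0.0329, adjusted p = 0.638), with r = 0.62 without the 2 farthest arrays. Ier2 with Ier3 gave r = 0.60 (permutation p = 0.0404, adjusted p = 0.485) and rho = 0.48 (p = 0.116, adjusted p = 0.736), and r = 0.12 without them. Egr1 with Ier2 in vehicle arrays had r = 0.51 (permutation p = 0.0902, adjusted p = 0.613) and rho = 0.38 (p = 0.228, adjusted p = 0.755), with r = 0.34 without the 2 farthest.

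Other immediate early genes gave a different count in the same fit. Of 21 listed and measured, 13 rose, none fell and 8 did not pass, where 5.31% of all genes rose. The median log2 difference of the list was 1.24. The largest rises were those of the stress-induced transcription factor Atf3 (8.73-fold, adjusted p = 0.000325), the orphan nuclear receptors Nr4a1 (5.42-fold, adjusted p = 0.000281) and Nr4a3 (5.22-fold, adjusted p = 1.74e-05) and the AP-1 subunit Jun (4.41-fold, adjusted p = 0.000682). Members of AP-1 that did not pass were Fosb, with a difference of 0.20, and Fosl1, with -0.08. The list's count is a description. With 5 surrogate variables 5 of the 21 passed (Zfp36, Dusp1, Klf6, Nr4a3 and Myc), where 3.32% of all genes passed in that fit.

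**Figure D3:**
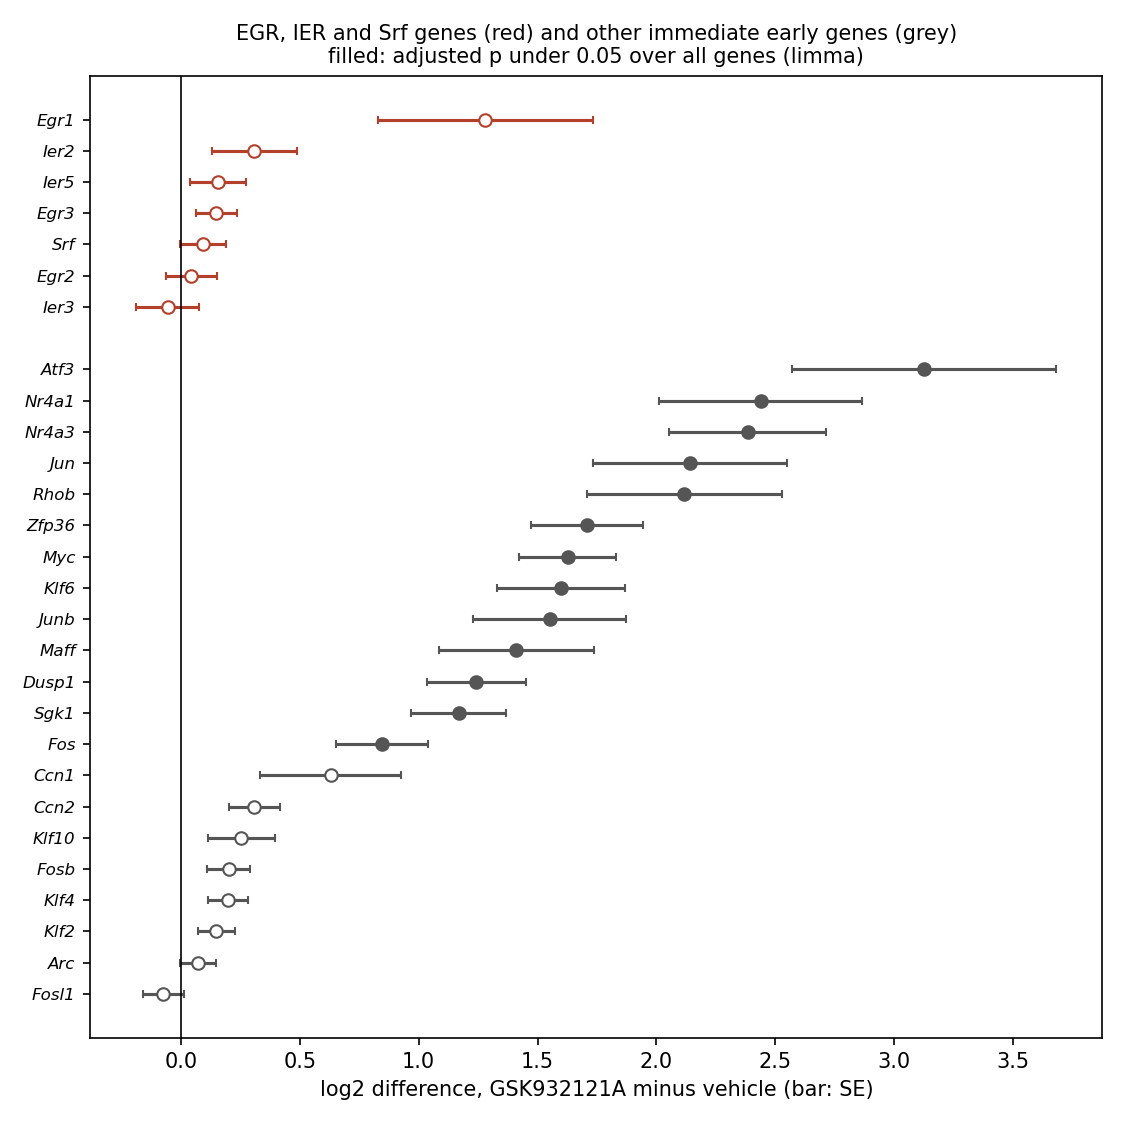
Log2 difference, GSK932121A minus vehicle (horizontal axis, bars are SE), for the 7 EGR, IER and Srf genes (red) and 21 other immediate early genes (grey), ordered by size. Filled circles passed at an adjusted p under 0.05: 0 of the 7 red and 13 of the 21 grey.

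The treated animals with high Egr1 were set beside these genes array by array. Jun was 9.98 in replicate 13, 10.95 in 14, 11.03 in 18, 10.58 in 22 and 10.37 in 23, the 5 highest values of the group. Atf3 was 9.08, 10.25, 10.58, 9.32 and 8.80 in the same arrays, again the 5 highest. Of the 13 other early genes that rose, 6 had their 5 highest treated values in exactly these arrays (Atf3, Jun, Rhob, Zfp36, Klf6 and Fos). The other 7 shared 4 of the 5, and in 6 of those 7, all but Dusp1, replicate 16 was among the 5 highest. Replicate 16 stood out among the arrays with low Egr1: its Jun was 9.59 and its Atf3 8.21, while its Egr1, at 7.76, was close to the vehicle mean. The other 4 arrays with low Egr1 had Jun between 7.43 and 7.91 and Atf3 between 5.12 and 5.78. Of the 21 other early genes, 14 lay above all vehicle arrays in replicate 16, against 13 to 16 in the 5 arrays with high Egr1 and 6 to 12 in the remaining 4. The share of all genes above the vehicle range was not computed per array. These counts therefore cannot be called particular to early genes. How often other genes that rose share these top arrays was not computed either. The groupings were seen in the data and not tested.

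**Figure D4:**
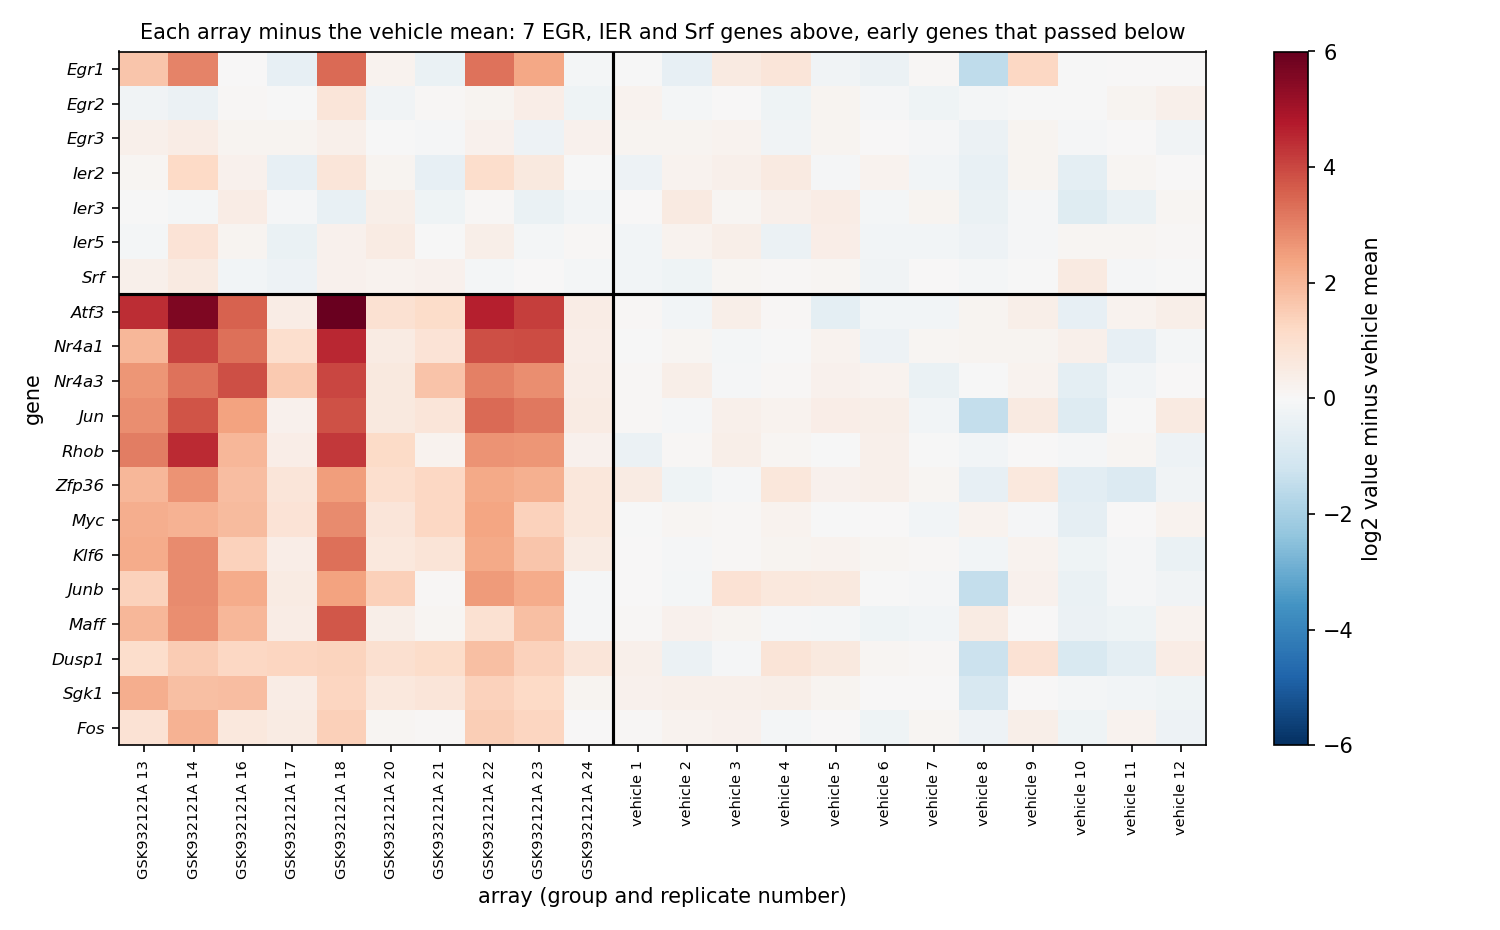
Log2 value of each array minus the vehicle mean (colour, red above and blue below), with 10 GSK932121A arrays left of the vertical line and 12 vehicle arrays right of it. The 7 EGR, IER and Srf genes are above the horizontal line and the 13 other early genes that passed are below it. Egr1 is red in replicates 13, 14, 18, 22 and 23, while the lower genes are red in replicate 16 as well.

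Genes with the pattern most like each member over the 10 treated arrays were sought by Pearson's r among 17695 named genes. For Egr1 they were Nfkbiz, an atypical I-kappa-B protein, Gdf15, a stress cytokine, and Nckap5. Each had its 5 highest treated values in the same 5 arrays as Egr1. This follows largely from the ranking, because r with Egr1 is shaped by the gap between its 5 high and 5 low arrays. Nfkbiz ran from 6.12 through 8.09 to 9.05 after GSK932121A and from 6.07 through 6.58 to 6.91 after vehicle, and rose 2.41-fold (adjusted p = 0.00287). Gdf15 rose 3.67-fold (adjusted p = 0.011), and Nckap5 did not pass (difference 0.28, adjusted p = 0.15). Over the 12 vehicle arrays Nfkbiz, Gdf15 and Nckap5 had r = 0.61, 0.79 and 0.15 with Egr1. For Ier2 they were Hes6, a transcription cofactor, with r = 0.93, Nfkbiz with r = 0.91 and the AP-1 subunit Junb with r = 0.90. Over the 12 vehicle arrays the same genes had r = -0.29, 0.39 and 0.68 with Ier2. The top genes for Ier3 (Npr3, r = 0.93), Ier5 (Prr32, r = 0.95), Srf (Saxol1, r = 0.95), Egr2 (Cthrc1, r = 0.93) and Egr3 (Prl8a9, r = 0.96) had r between -0.41 and 0.26 over the vehicle arrays. For the next genes of these members, vehicle r ran from -0.31 (Irak2 with Srf) to 0.64 (Nupr2 with Ier3). The r values over the treated arrays are the highest of many over few arrays and are given as descriptions.

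Genes around the members in the pathway were counted from lists chosen with earlier results of these data known. Of 3 relatives (Egr4, Ier5l and Wt1, which shares the zinc finger type), 5 cofactors of SRF and both co-repressors Nab1 and Nab2, 0 passed in limma. Among all genes 12.4% passed, and these lists are too short to tell 0 from that share. The SRF cofactor Myocd alone had an unadjusted p under 0.05 (difference 0.21, adjusted p = 0.168), which 24.0% of all genes had. Welch and Wilcoxon tests with the same adjustment also called 0 of these genes. Of 12 genes bound or activated by EGR1 in other systems, 0 passed in limma, against 12.4% of all genes, and 2 had an unadjusted p under 0.05, against 24.0% of all genes. They were F3, tissue factor (difference 0.30, adjusted p = 0.201), and Ptgs2, cyclooxygenase-2 (difference 0.26, adjusted p = 0.144). The median difference of the 12, which include Nab2 again, was 0.06. This list too is too short to tell 0 from 12.4%. Its vehicle means ran from 4.4 (Ptgs2), below every array median, to 8.5 (Vegfa). Of 14 cytoskeletal targets of SRF and its MRTF cofactors, 1 rose (5.31% of all genes did), the tropomyosin gene Tpm4 (1.81-fold, adjusted p = 1.64e-06), with all 10 treated arrays above the highest vehicle array. Actb, which encodes beta-actin, differed by 0.09 and did not pass (adjusted p = 0.531).

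In the ERK cascade and its receptors, 2 of 17 genes rose and 1 fell, where 12.4% of all genes passed in either direction and 5.31% rose. Mknk1, a kinase activated by ERK, rose 1.60-fold (adjusted p = 2.05e-05) and the Ras exchange factor Sos1 rose 1.32-fold (adjusted p = 0.00291), while the receptor gene Erbb3 fell by 0.62 on the log2 scale (adjusted p = 0.000112). Of 10 feedback inhibitors of the cascade, 2 rose and 1 fell, beside the same 12.4% and 5.31% of all genes. Spry4, a Sprouty inhibitor of receptor signalling, rose 1.67-fold (adjusted p = 0.000938) and Errfi1, an inhibitor of the EGF receptor, rose 1.52-fold (adjusted p = 7.38e-06). Spred1, an inhibitor of Ras signalling, fell by 0.51 (adjusted p = 0.00143). Of 10 genes for PP2A subunits and heat shock factors, partners of the IER proteins, 1 fell and none rose, where 12.4% of all genes passed: the regulatory subunit Ppp2r5a, by 0.40 (adjusted p = 0.000473). Hsf1 differed by 0.12 and did not pass (adjusted p = 0.271).

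Identical values were found in no pair of arrays. The mean correlation of an array with the others moved with the Egr1 values in part: it was 0.979 in replicates 13, 14 and 18, the 3 lowest of all 22 arrays and all with high Egr1. It was 0.983 in replicate 22 and 0.981 in replicate 23, from 0.982 to 0.986 in the 5 treated arrays with low Egr1 and from 0.981 to 0.985 in the vehicle arrays, and its part in the values of Egr1 was not tested. Array medians lay between 4.75 and 4.85 in the 5 arrays with high Egr1 and between 4.78 and 4.83 in the other 5 treated arrays. The mean level of 7 hepatocyte markers lay between 11.59 and 11.69 after GSK932121A and between 11.44 and 11.72 after vehicle, and Cps1 rose 1.25-fold. Markers of other cells were compared because immediate early genes respond in many cell types. Of 7 macrophage markers Cd163 rose 1.28-fold, and of 4 endothelial markers Lyve1 rose 1.16-fold, where 5.31% of all genes rose. None of 5 neutrophil, 7 stellate cell, 7 lymphocyte, 6 cholangiocyte or 2 erythroid markers passed in limma, and Welch and Wilcoxon tests also called 0. In the same order, 0, 1, 3, 0 and 0 had an unadjusted p under 0.05 in limma. Among all genes 12.4% passed and 24.0% had an unadjusted p under 0.05, and lists this short cannot tell 0 from such shares. Some of these markers had vehicle means below every array median, such as S100a8 (2.25) and Cd3g (3.25). Others, such as Lrat (8.62), lay above them. The mean level of the macrophage list ran from 7.27 to 7.79 after GSK932121A and from 7.17 to 7.75 after vehicle, that of the neutrophil list from 3.56 to 4.41 after GSK932121A and from 3.60 to 4.20 after vehicle, and that of the endothelial list from 8.00 to 8.23 after GSK932121A and from 7.92 to 8.24 after vehicle. Their part in the values of Egr1 was not tested.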

How the data were processed

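Liver RNA of 22 rats was measured on 22 Affymetrix whole-transcript arrays, 10 after GSK932121A and 12 after vehicle. The deposited log2 values were made by RMA, per the submitters' processing notes; the software version is not given in the sources used here. As a method, RMA corrects background, quantile-normalizes arrays and summarises probes, which can understate differences at low signal. The platform annotation gave a single symbol to 18511 of 36685 probe sets, several symbols to 575 and none to 17599. For each gene the probe set with the highest mean was kept, which gave 18166 genes. Precision is limited by the number of arrays.

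Groups were compared with limma (version 3.58.1, R 4.3.3; lmFit and eBayes, no covariate), with Benjamini-Hochberg adjustment over all 18166 genes and a threshold of 0.05. Spread ratios and pair differences were tested by two-sided permutation of arrays with 100000 resamples (Python 3.11.15, scipy 1.17.1). The fit was tested on simulated data. Genes outside the 7 were named as the 4 largest changes among those past the threshold in each list and the 3 most correlated genes per member. Others were named after their values were seen: Fos, Fosb, Fosl1, Rhob, Klf2, Klf4, Klf10, Myocd, F3, Ptgs2, Actb and Hsf1. The genes kept with surrogate variables and the marker genes that passed were also named in that way. The members and lists were chosen with earlier results of these data known. Alternatives covered scaling, filters, probe set choice, tests, array weights, surrogate variables and leaving out each array. Nothing says that rats were handled in batches.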

Additional observations from a re-analysis of the deposited data

How the results depend on the processing

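Of the 7 differences, those of Egr3, Ier3 and Ier5 kept their direction and stayed short of the threshold under every alternative run. Egr1 passed with a filter at a mean log2 value of at least 5 (1.28, adjusted p = 0.0446) or 7 (1.28, adjusted p = 0.0428), where fewer genes were tested, and the count of members past the threshold was then 1. Leaving out 1 array at a time gave 1.05 to 1.48 for Egr1 (adjusted p from 0.0276 to 0.132, limma) and -0.0331 to 0.0884 for Egr2, which was below 0 without GSK932121A replicate 18 (-0.0331). The member count ran from 0 to 1 in those fits, and the count of other immediate early genes from 13 to 14. With 5 surrogate variables the differences were -0.0811 for Egr1, -0.0326 for Egr2, -0.146 for Ier2 and -0.0778 for Srf. In that fit 5 other early genes passed, where 3.32% of all genes did, and the cause of these shifts was not tested. With the filter at 7, 8 of the 10 other early genes left passed, where 29% of all genes left did. The log2 ratio of spreads by the median absolute deviation was 2.26 for Egr1, which no longer passed (adjusted p = 0.061 over the 7 tests, against 0.0335 by SD), and -0.63 for Egr3. By SD it was 1.25 for Egr1 and 0.31 for Egr3, and leaving out 1 array gave 1.17 to 1.68 for Egr1, -0.12 to 0.54 for Egr3 and 0.14 to 1.07 for Srf, the last without vehicle replicate 10. No paired analysis was possible because the groups share no replicate numbers. Limits are the single dose and time, the missing sampling time of the vehicle group, and the lack of a measure of background for the low values of Egr2 and Egr3.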

Other observations

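Of 28 immediate early genes, which include the 7 members, vehicle replicate 8 was the lowest vehicle array at 12. The share of all genes with their lowest vehicle value in this array was not computed. The array also had the lowest mean correlation with the other arrays among the vehicle arrays (0.981). Replicate 8 had the lowest vehicle value of Egr1 (6.24) and of Egr3 (4.51), and its Jun was 5.75, its Junb 5.31 and its Dusp1 9.12. Without it the difference of Egr1 was 1.14 (limma, adjusted p = 0.106). The highest vehicle value of Egr1, 8.99, was that of replicate 9.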
